A study of Mus musculus with 4 samples.

Results

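The 7 genes Nrg1, Erbb2, Erbb3, Adam17, Bace1, Lgi4 and Adam22 encode the neuregulin and Lgi4 signals that pass between axons and Schwann cells. They were taken by their symbols from a table of 50593 genes measured by RNA sequencing of mouse sciatic nerve. Neuregulin-1, made by neurons and displayed on the axon, binds the ErbB2/ErbB3 receptor pair on Schwann cells, and the amount presented sets whether an axon is myelinated and how thick its myelin becomes. Proteases of the axon surface govern this signal, Bace1 by a cut that promotes myelination and Adam17 by a cut that restrains it. Lgi4 is secreted by Schwann cells and acts through Adam22 on the axon, and mice without Lgi4 myelinate their peripheral nerves late and poorly.

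Sciatic nerves were compared between 2 groups of 129S1/SvImJ mice at 6 months of age, HSF V30M and HSF WT, with 2 mice per group in the labels and n = 4 in the study's methods, which do not say whether this is per group. Both groups carry a heterozygous deletion of Hsf1, the gene of heat shock factor 1. In HSF V30M mice the endogenous Ttr is null and a human transgene encodes TTR V30M, as a model of transthyretin amyloid neuropathy, while HSF WT mice carry no transgene. The promoter of the transgene is not given in the sources used here. Levels are in FPKM, a fragment count divided by transcript length and by library depth. The table gives each gene a single pooled FPKM in each group, so the spread among mice is unknown and the groups were not tested against each other.

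Mouse Ttr went against its null allele, since the group labelled HSF V30M held 6.10 FPKM, from 132 to 155 fragments. For the group labelled HSF WT the table lists Ttr at 0, and 3 fragments would have given 0.197 there. Reads of the human transgene cannot be told apart from mouse reads in this table, and an exchange of the 2 group columns would give the same Ttr values, so these cannot be told apart and Ttr does not check the labels. HSF V30M and HSF WT stand below for the groups so labelled, and every direction given here rests on those labels and would turn if the columns were exchanged. Hsf1, heterozygous in both groups, was at 7.94 in HSF V30M against 15.0 in HSF WT. Mbp, the myelin basic protein of Schwann cells, was at 3854 FPKM in HSF V30M and 3441 in HSF WT. The median level over genes with a mean of at least 1 FPKM was 8.67 in both groups. All 16 Schwann cell markers listed were above a mean of 1 FPKM, as were all 8 adipocyte and all 8 macrophage markers. The worth of 1 fragment, read from low values of genes with 1 transcript, placed the libraries of a group 1.18-fold apart in depth in HSF V30M and 1.35-fold apart in HSF WT. Counts of fragments and their intervals cover counting error only.

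The 2 ADAM family members act in different ways, and a pair of coding stretches is shown for this reason. Adam17 is an active metalloprotease, whereas Adam22 is a receptor of the same family without protease activity. The stretches are 33 bases each from the reference genome GRCm38 (C57BL/6J, not the 129 strain of these mice), 5′ to 3′ on the coding strand, with capitals marking the 4 codons of the zinc-binding and catalytic residues of Adam17 and the codons aligned with them in Adam22. The Adam17 stretch lies in 1 exon on the minus strand at chr12:21336732-21336764, and the Adam22 stretch in 1 exon on the minus strand at chr5:8143064-8143096.
Adam17: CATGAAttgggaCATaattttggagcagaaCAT
Adam22: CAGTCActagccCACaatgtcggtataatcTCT
Of the 4 codons in capitals, 1 encoded the same residue in both genes. The changes within the capitals, counted from the first base of the stretch with the Adam17 base named first, were T3G, G4T, A5C, T15C, C31T and A32C. Over the whole proteins, 27.0% of 753 aligned residues were the same, and Adam22 held no match to the motif anywhere. ErbB2 and ErbB3 were closer to each other, with 44.3% of 1220 aligned residues the same.

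All 7 genes were expressed in sciatic nerve in both groups, above a mean of 1 FPKM, and none differed between the groups by a fold over 1.5. On the log2(FPKM + 1) scale the ratios of HSF V30M over HSF WT ran from -0.25 for Adam17 to 0.36 for Erbb2, with a median of -0.04. The median over all 15620 genes with a mean of at least 1 FPKM was 0.00, their quartiles were -0.22 and 0.23, and 16.7% of them were past the fold (8.22% higher and 8.44% lower in HSF V30M). The ratios of 5 of the 7 genes lay between these quartiles and were within 0.1 of 0, a band that held 24.6% of all genes. Erbb2 was the member furthest above the band and Adam17 the member furthest below it.

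**Figure D1:**
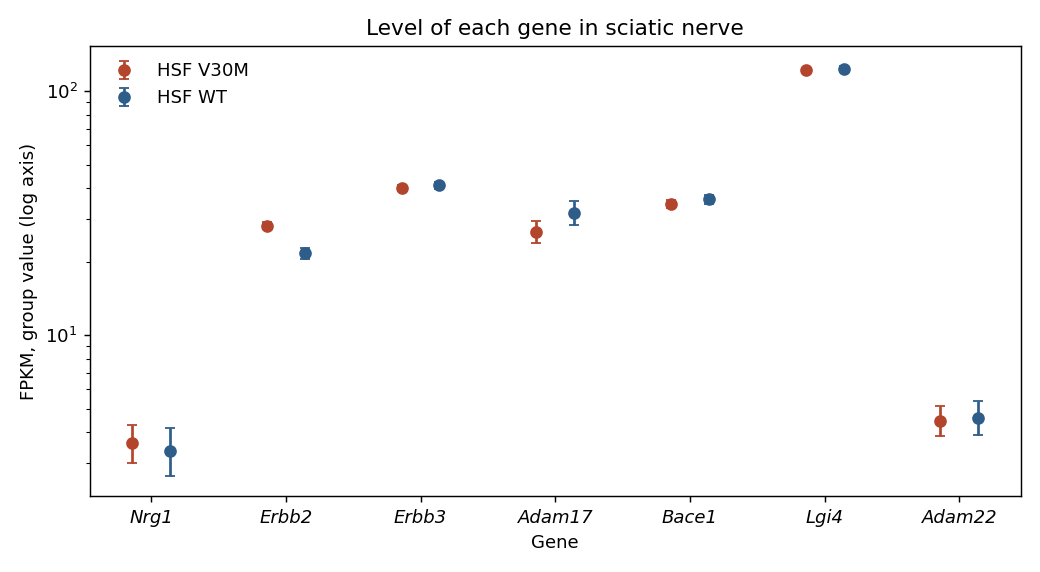
FPKM (log axis) of the 7 genes in HSF V30M (red) and HSF WT (blue), 1 value per group. Bars are 95% Poisson intervals at the fewest fragments on complete coding transcripts, for counting error only and not for the spread between mice. Lgi4 is highest and Nrg1 lowest in both groups, and the bars part between the groups for Erbb2 alone. The Adam17 bars overlap, but the interval of its ratio on these transcripts, 0.718 to 0.977, leaves out 1.

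The levels, which FPKM gives per length of transcript, spanned 33.8-fold between the members in HSF V30M and 37.0-fold in HSF WT. Lgi4 was the highest in both groups, followed by Erbb3 and Bace1, and Adam22 and Nrg1 were the lowest. The only change of order was between Erbb2 and Adam17, which were the fourth and the fifth in HSF V30M and the reverse in HSF WT. When the fewest fragments were taken on complete coding transcripts, the counting intervals of neighbours overlapped for Erbb2 and Adam17 in HSF V30M, for Bace1 and Adam17 in HSF WT, and for Adam22 and Nrg1 in both groups. When the shortest annotated transcript of any kind was used, all neighbours overlapped except Lgi4 and Erbb3, and Adam22 and the gene above it.

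**Figure D2:**
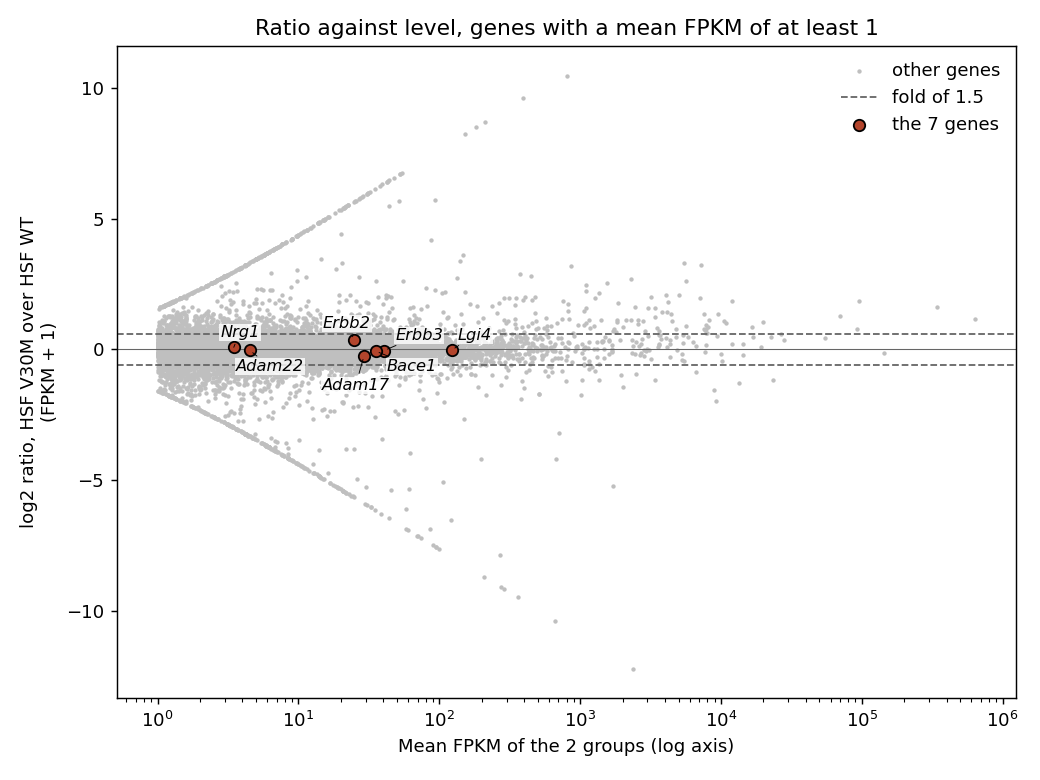
HSF V30M to HSF WT log2 ratio on the (FPKM + 1) scale against mean FPKM (log axis) for 15620 genes (grey) and the 7 genes (red). Dashed lines mark a fold of 1.5, and the slanted rows of points at the edges are genes at or near 0 in 1 group. All 7 genes lie between the dashed lines, from -0.25 to 0.36.

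Nrg1 (ENSMUSG00000062991), the ligand, spans 31814551 to 32884029 on the minus strand of chromosome 8 (GRCm38), with 18 annotated transcripts, 12 of them coding. Its level was 3.60 FPKM in HSF V30M against 3.34 in HSF WT, a ratio of 1.08. This ranked it above 28.0% of expressed genes in HSF V30M and above 25.9% in HSF WT, the lowest place of any member. The membrane-bound and the secreted forms of neuregulin-1 come from different promoters of this gene, and a value per gene does not separate them. On complete coding transcripts the values stood for 124 to 484 and 81 to 363 fragments, and the interval of the ratio was 0.808 to 1.44. On the shortest transcript of 285 bases they stood for as few as 7 and 4 fragments, with an interval of 0.274 to 5.02. On the longest coding transcript, of 5415 bases, the interval was 0.922 to 1.26, so the precision of the Nrg1 ratio depended on which transcripts the reads came from. The cell bodies of sciatic axons lie outside the nerve, and neuronal markers were low in both groups, with a summed level over 8 genes of 14.2 FPKM in HSF V30M against 9.44 in HSF WT.

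Erbb2 (ENSMUSG00000062312) encodes the receptor with a strong kinase and no known ligand of its own. It lies on the plus strand of chromosome 11 from 98412470 to 98437716, and its 1 coding transcript has 27 exons and 5012 bases. Its level was 28.1 FPKM in HSF V30M against 21.6 in HSF WT, a ratio of 1.30 and the largest difference among the members. The log2 ratio of 0.36 was matched or passed in size by 31.8% of all expressed genes. On the coding transcript the values stood for 2962 to 3485 fragments against 1610 to 2168, and the interval of the ratio was 1.22 to 1.38. When the fewest fragments were taken on a noncoding transcript of 388 bases, the interval was 0.947 to 1.80. The difference was thus larger than counting error if the reads came from the coding transcript, and its size against the spread between mice is unknown. Of 16 Schwann cell markers, 8 were higher and 8 lower in HSF V30M, with a median of 0.07. Summed levels were 13030 FPKM in HSF V30M against 11552 in HSF WT for the 8 myelin markers. For the 8 other Schwann cell markers they were 953 and 703, a ratio of 1.36. In bulk tissue, fewer cells of a type and less RNA per cell cannot be told apart, and the part of Schwann cell content in the Erbb2 value was not tested.

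Erbb3 (ENSMUSG00000018166) encodes the receptor that binds neuregulin-1 and whose own kinase is weak, so that it signals as a partner of ErbB2. It lies on the minus strand of chromosome 10 from 128567523 to 128589652 and has 1 transcript, of 28 exons and 6016 bases, which shares no exon with another gene. Its level was 39.98 FPKM in HSF V30M against 41.1 in HSF WT, from 5089 to 5990 and 3695 to 4976 fragments. The ratio of 0.973 had an interval of 0.932 to 1.02, which included 1 and, with a single transcript, did not depend on a choice of transcript. Within a group, Erbb3 was 1.42-fold above Erbb2 in HSF V30M against 1.899-fold above it in HSF WT, and Erbb2 had the larger difference of the pair.

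**Figure D3:**
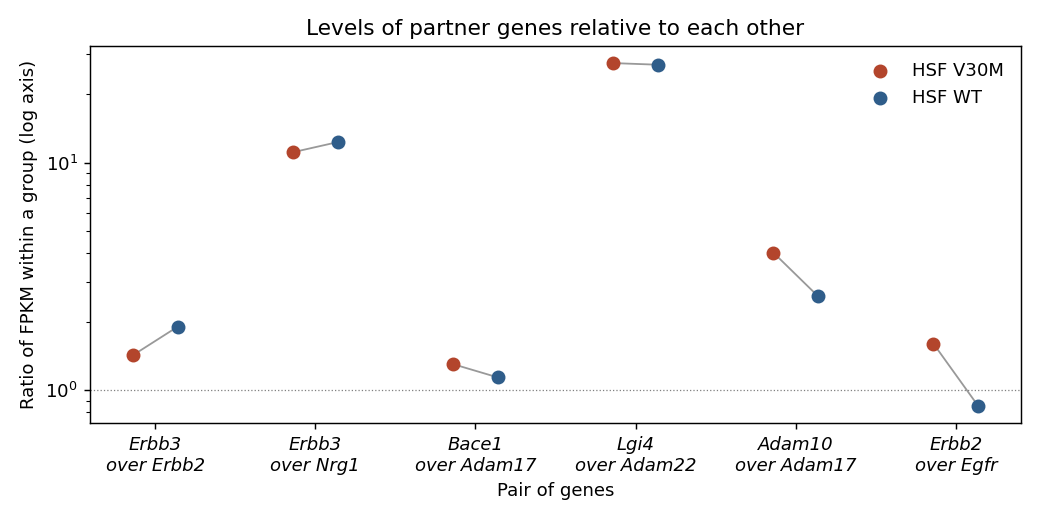
Ratio of FPKM between 2 genes within HSF V30M (red) and within HSF WT (blue), on a log axis with 1 value per group and no error bars. Lgi4 over Adam22 is 27.4 in HSF V30M and 26.9 in HSF WT, whereas Erbb3 over Erbb2 is 1.42 and 1.899, and Erbb2 over Egfr is 1.60 and 0.851.

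Bace1 (ENSMUSG00000032086) encodes the aspartyl protease that cuts neuregulin-1 and also cuts the amyloid precursor protein where the amyloid-beta peptide begins. The gene lies on the plus strand of chromosome 9 from 45838580 to 45864399. Its level was 34.6 FPKM in HSF V30M against 36.1 in HSF WT, with a ratio of 0.958 and an interval of 0.905 to 1.01 on complete coding transcripts. Adam17 (ENSMUSG00000052593), on the minus strand of chromosome 12 from 21323509 to 21373632, was at 26.6 and 31.8, a ratio of 0.837. Adam17 was thus the lowest of the members relative to HSF WT, and 46.7% of expressed genes had a log2 ratio at least as large in size as its -0.25. Its interval was 0.718 to 0.977 on complete coding transcripts (368 to 2924 and 311 to 2822 fragments). On the longest coding transcript the interval was 0.790 to 0.888. On the shortest transcript of 375 bases it was 0.621 to 1.13 and included 1. The Adam17 difference was thus larger than counting error if the reads came from complete coding transcripts, and its size against the spread between mice is unknown. Bace1 was 1.30-fold above Adam17 in HSF V30M against 1.14-fold above it in HSF WT. Adam17 is also made by macrophages, whose markers were lower in HSF V30M in 6 of 8 genes (summed level 403 against 604), and the part of macrophage content in the Adam17 value was not tested.

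Lgi4 (ENSMUSG00000036560) lies on the plus strand of chromosome 7 from 31059342 to 31070935, and its longest coding transcript has 9 exons and 4037 bases. Its level was 122 FPKM in HSF V30M against 124 in HSF WT, above 95.6% of expressed genes in both groups. The ratio of 0.986 had an interval of 0.957 to 1.02 on the coding transcript. Adam22 (ENSMUSG00000040537), its receptor, lies on the minus strand of chromosome 5 from 8072352 to 8368160 with 24 transcripts, and was at 4.45 and 4.59, a ratio of 0.970 with an interval of 0.782 to 1.21 on complete coding transcripts. In nerve RNA the Lgi4 transcript, the Schwann cell side of the pair, was therefore 27.4-fold above that of Adam22 in HSF V30M and 26.9-fold in HSF WT. Adam22 acts on the axon, and the cell bodies of sciatic axons lie outside the nerve, so this ratio does not give a balance of ligand and receptor. Lgi4 also shares exon bases with Fxyd3, and the part of Fxyd3 reads in its level was not tested. Lgi4 was also 3.05-fold above Erbb3 in HSF V30M against 3.01-fold in HSF WT.

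Several members overlap neighbouring genes, and the sources used here do not say whether counting used strand, so reads of overlapping exons cannot be told apart. Lgi4 shared 44.9% of its 4584 exon bases with Fxyd3, a gene on the other strand at 136 FPKM in HSF V30M against 166 in HSF WT. Bace1 shared 32.5% of its 6348 exon bases with other genes, among them Rnf214 at 21.3 and 26.9. Nrg1 shared 4.66%, Adam17 4.35%, Erbb2 0.173%, and Erbb3 and Adam22 none. Of the 7 genes, Lgi4 thus shared the largest part of its exon bases.

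The other ligands and receptors of the family were listed to set the members in place. Of 10 other ligands of the EGF family, 4 had a mean of at least 1 FPKM, with HSF V30M higher in 3 and lower in 1, and none was past the fold, with a median log2 ratio of 0.32. Without the genes that share exon bases with another gene, this median was -0.08 over 2 genes. The highest were Hbegf at 20.1 in HSF V30M against 17.9 in HSF WT, Tgfa at 19.0 and 13.4, and Nrg4, a neuregulin that adipose tissue secretes, at 8.01 and 5.04. Nrg4 was past the fold with a pseudocount of 0.1 in place of 1. Areg and Epgn were listed at 0 in both groups. By transcript level Hbegf and Tgfa, which act on Egfr, stood above Nrg1 in the nerve in both groups. The cell bodies of the neurons that make neuregulin-1 lie outside the nerve, so this order does not rank the supply of the ligands. The 2 other receptors were lower in HSF V30M, within the fold, with a median of -0.40. Egfr was at 17.6 in HSF V30M against 25.4 in HSF WT, and Erbb4 at 1.42 and 1.95. Erbb2 was therefore 1.60-fold above Egfr in HSF V30M and 0.851 of its level in HSF WT. Of the 4 receptors only Erbb2 had a higher value in HSF V30M, but the interval of the Erbb3 ratio, 0.932 to 1.02, included 1.

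Among 16 other proteases, gamma-secretase subunits and their regulators, 10 were higher and 6 lower in HSF V30M, none was past the fold, and the median was 0.09. Adam10, the close relative of Adam17, was at 107 in HSF V30M against 82.1 in HSF WT, so that it stood 4.02-fold above Adam17 in HSF V30M against 2.58-fold in HSF WT. Timp3, the tissue inhibitor of Adam17, was the highest of the list at 255 and 265. Rhbdf1, which helps Adam17 to mature, was at 44.1 and 31.9. The transcripts around Adam17 thus had ratios on both sides of 1. Of 5 other LGI proteins and ADAM receptors, 4 had a mean of at least 1, none past the fold and with a median of 0.06, and the highest were Adam23 at 14.6 and 10.8, Lgi1 at 8.06 and 8.53, and Adam11 at 7.74 and 6.62. Lgi4 stood 15.1-fold above Lgi1 in HSF V30M against 14.5-fold in HSF WT.

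**Figure D4:**
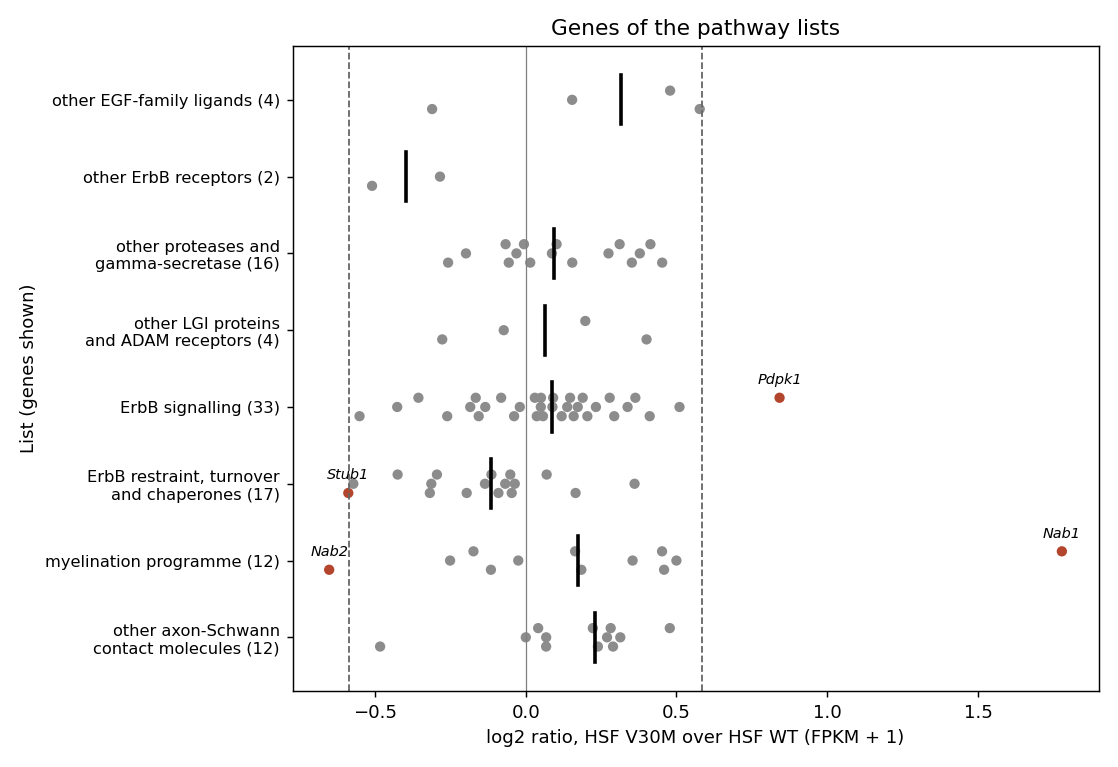
HSF V30M to HSF WT log2 ratios on the (FPKM + 1) scale for genes of 8 pathway lists with a mean of at least 1 FPKM, 1 point per gene. Black bars are list medians, dashed lines a fold of 1.5, and red points the genes past it. Only Pdpk1, Stub1, Nab1 and Nab2 are past the fold, and the other points lie between the dashed lines.

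Downstream of the receptors, 33 genes of the adaptors, Ras-MAPK, PI3K-Akt and calcineurin branches were listed, and 22 were higher and 11 lower in HSF V30M, with a median of 0.09. Only Pdpk1, the kinase that activates Akt, was past the fold, at 23.0 in HSF V30M against 12.4 in HSF WT. Mapk3, which encodes Erk1, was the highest of the branch at 320 and 224, followed by Map2k2 at 79.6 and 73.2 and the adaptor Gab1 at 71.6 and 75.8. Most of this machinery had ratios within the fold, as did the members and most expressed genes, of which 16.7% were past it.

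Of 17 genes that restrain, turn over or fold the receptors, 14 were lower and 3 higher in HSF V30M, with a median of -0.11. Stub1, the ubiquitin ligase that works with Hsp70 and Hsp90 chaperones, was past the fold, at 24.5 in HSF V30M against 37.3 in HSF WT, but it shares 1084 exon bases with other genes. Hsp90ab1 and Hsp90aa1, chaperones on which ErbB2 depends, were at 313 and 421 and at 102 and 127, and Nedd4, a ubiquitin ligase, at 170 and 253.

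Among 12 genes of the myelination programme that ErbB signalling feeds, 7 were higher and 5 lower in HSF V30M, with a median of 0.17. Mbp was at 3854 in HSF V30M against 3441 in HSF WT, and Pmp22, a membrane protein of compact myelin, at 2252 and 2440, so these myelin transcripts had ratios on both sides of 1 and within the fold. The corepressors of Egr2 were past the fold in opposite directions. Nab1 was at 49.0 in HSF V30M against 13.6 in HSF WT, a ratio of 3.61 with no exon shared with another gene, and Nab2 was at 19.8 and 31.7, with 1241 exon bases shared with Stat6 and other genes. Of 12 other molecules of axon-Schwann contact, 11 were higher in HSF V30M (Ncam1 by 0.00) and Cadm1 was lower, with a median of 0.23 and none past the fold. The median was 0.07 over the 5 genes that share no exon bases with another gene. The highest were Cadm4, the Schwann cell adhesion molecule that faces the axon, at 410 and 294, Itgb4 at 310 and 257 and Dag1 at 272 and 230. Over all 8 lists, 4 of 100 expressed genes were past the fold, beside 16.7% of all expressed genes, and the lists were not tested. They were not matched to all genes by level either. With a mean FPKM of at least 5, the share of all genes past the fold was 7.17% higher and 6.33% lower in HSF V30M.

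**Figure D5:**
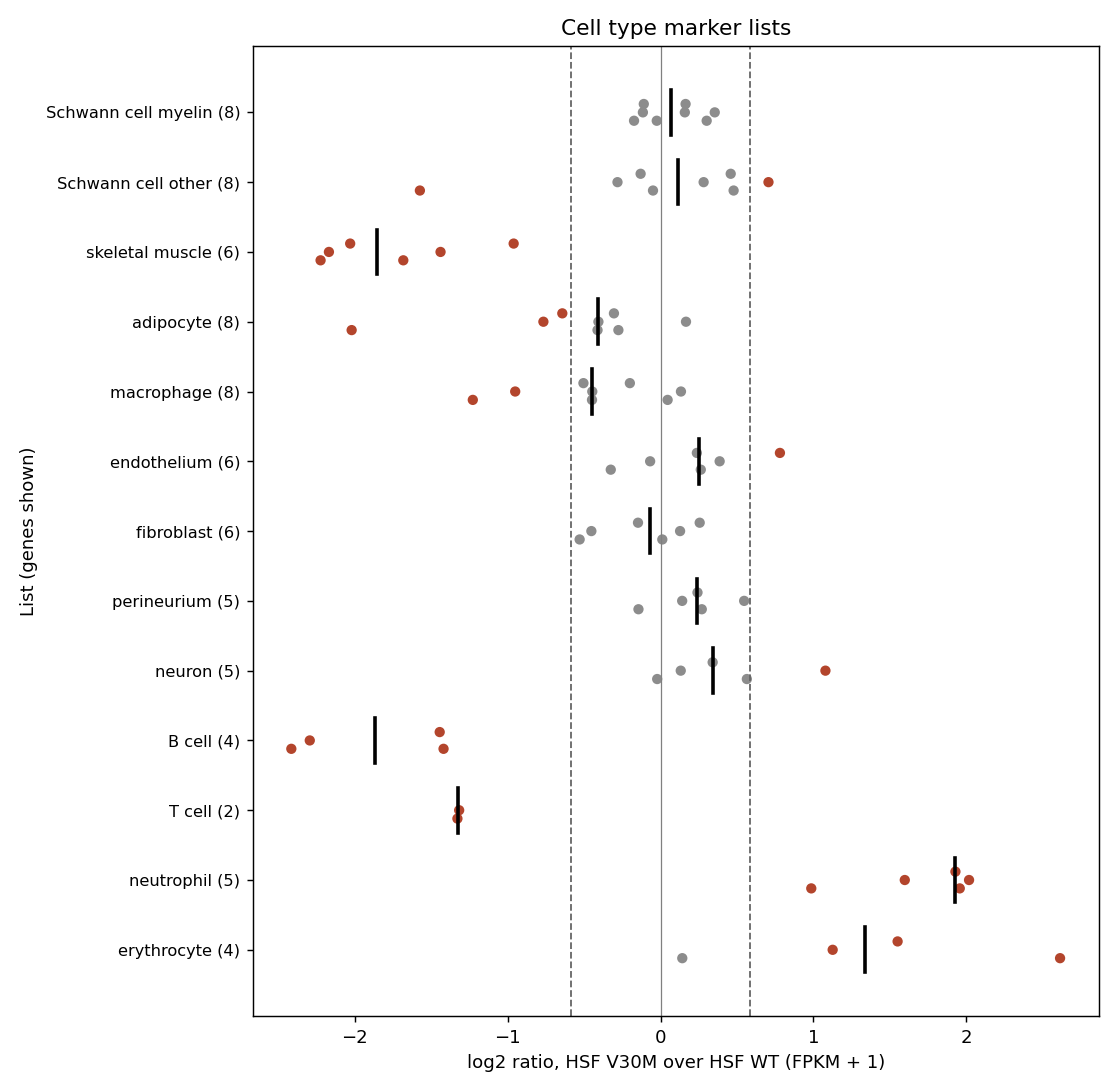
HSF V30M to HSF WT log2 ratios on the (FPKM + 1) scale for cell type markers with a mean of at least 1 FPKM, 1 point per gene. Black bars are list medians, dashed lines a fold of 1.5, and red points the genes past it. The Schwann cell medians are 0.07 and 0.12, whereas skeletal muscle (-1.86) and neutrophil (1.93) markers lie far to either side.

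Among cell type markers, the Schwann cell lists had medians near 0 and those of muscle and blood cells did not. The 8 myelin markers had a median log2 ratio of 0.07 and a summed level of 13030 FPKM in HSF V30M against 11552 in HSF WT. The 8 other Schwann cell markers had a median of 0.12, from -1.57 for Gfap to 0.71 for S100b. Their summed level was 953 in HSF V30M against 703 in HSF WT, a ratio of 1.36. All 6 expressed skeletal muscle markers were lower in HSF V30M (summed level over the list 42.9 against 157), as were 7 of 8 adipocyte markers (2506 against 3420), 6 of 8 macrophage markers (403 against 604), 4 of 4 expressed B cell markers (2.23 against 21.2) and 2 of 2 expressed T cell markers (2.38 against 8.02). All 5 expressed neutrophil markers (102 against 25.1) and 4 of 4 expressed erythrocyte markers (137 against 45.2) were higher. Medians were 0.25 for endothelium, -0.07 for fibroblasts, 0.24 for perineurium and 0.34 for neurons. The 4 keratinocyte markers, which would mark skin, were near 0, with summed levels of 0.880 and 1.27. Relative to the median of the 16 Schwann cell markers, the members' log2 ratios were lower by 0.07 and ran from -0.31 for Adam17 to 0.30 for Erbb2. The part of these cell types in the members' values was not tested.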

How the data were processed

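Ion Torrent reads of sciatic nerve RNA were, per the labels, aligned by the authors with STAR to GRCm38 and quantified with Cufflinks and Cuffdiff (versions and options not given in the sources used here). The authors deposited 1 Cuffdiff table with an FPKM per gene and group. Its columns of fold change, test statistic, p-value, q-value and significance hold the authors' own comparison and were not used. Decimal commas were read as points, and 23 of 50593 genes without an estimate were left out. The log2 ratio was taken of HSF V30M to HSF WT after adding 1 to each FPKM, which understates the change of low genes. A gene was past the fold if it differed by over 1.5-fold on this scale and its mean FPKM was at least 1. The study used a fold of the same size together with a p threshold, which was not applied here.

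The members and lists were chosen with earlier results of these data known. Named genes were the members, the pathway genes past the fold, the 3 highest of each pathway list and the 2 highest of each marker list, of which only some are printed and some are not reported here. Areg, Epgn, Cadm1, Pik3cb, Ncam1, Gfap and Hsf1 were added after their values were seen.

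Exons and positions came from GENCODE M21 on GRCm38, which holds 50369 of the gene identifiers. Whether the authors counted with this annotation is not given in the sources used here. Low values of genes with 1 transcript were multiples of 1 fragment once 201 bases were taken off the length. The value of 1 fragment per kilobase was 0.0480 or 0.0647 for HSF WT (798 values, 98.4% of them closer than 2%) and 0.0388 or 0.0457 for HSF V30M (360 values, 98.6% closer than 5%). Each FPKM was turned into a range of fragments over transcript lengths and both values. Exact 95% intervals (Poisson for levels, Clopper-Pearson for ratios) used the fewest fragments. The reading of the worth of 1 fragment and the calls past the fold were tested on simulated data. The intervals and the rounding of the HSF V30M values were not simulated. Work was done in Python 3.11.15 with pandas 2.3.3, numpy 2.4.6, matplotlib 3.10.9 and scipy 1.17.1.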

Additional observations from a re-analysis of the deposited data

How the results depend on the processing

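No paired analysis was possible because mice of a group were pooled into a single FPKM, and for the same reason no mouse could be left out in turn. The log2 ratios of the 7 members kept their sign under a pseudocount of 0.1, median-of-ratios scaling, no pseudocount and centring on the Schwann cell markers, the last 2 chosen after seeing the data. Relative to the Schwann cell markers, Erbb3 (-0.11) and Lgi4 (-0.09) moved by more than the counting error on complete coding transcripts, and the other 5 members by less. The number of genes past the fold was 732 higher and 646 lower in HSF V30M with a mean FPKM of at least 5 (7.17% and 6.33% of 10205 genes). It was 621 and 616 with a fold over 2 (3.98% and 3.94% of 15620 genes), and both settings are stricter by construction. With a pseudocount of 0.1 the number was 1703 and 1692 (10.9% and 10.8% of 15620 genes). In the pathway lists it was 1 (Nab1) with a fold over 2 and 2 (Nab1 and Pdpk1) without genes that share exon bases with another gene, and 6 with a pseudocount of 0.1, which added Nrg4 and Pik3cb. Of 89 medians of lists under the alternatives, 21 moved by 0.1 or more and 2 changed sign, those of the other EGF-family ligands without genes that share exons (-0.08) and of the other LGI proteins and ADAM receptors without a minimum FPKM (-0.07). The fewest fragments depended on which transcripts were allowed for all members but Erbb3, which has 1 transcript. Depth limits Nrg1 and Adam22 most.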

Other observations

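The ratio between the corepressors Nab1 and Nab2 was picked out after their values were seen. The Nab1 transcript was 2.47-fold above Nab2 in HSF V30M and 0.428 of its level in HSF WT, a change of 2.53 on the log2 scale. The part of overlapping genes in the Nab2 value was not tested.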
